A study of Rattus norvegicus with 18 samples.

Results

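Dorsal root ganglia hold the cell bodies of the sensory neurons that carry touch, temperature and pain signals to the spinal cord. The comparison described here set the ganglia of rats with a neuropathic pain model, given the solvent, against the ganglia of sham rats, also given the solvent. It was chosen by its column labels, NPP_solvent_1 to NPP_solvent_3 against Sham_solvent_1 to Sham_solvent_3, and so took 6 of the 18 libraries of the series. The other 12 libraries were untreated controls (Ctrl), controls given the solvent (Ctrl_solvent), and sham and pain-model rats given the herbal treatment (Sham_herb, NPP_herb), with 3 libraries in each of the 6 groups. The herbal treatment was Shentong Zhuyu decoction, a preparation of 12 ingredients. Solvent exposure was common to both groups compared, which by their labels differed in the pain model. Other differences between the libraries, such as tissue makeup, were not separated from it. The question, as far as the series text states it, was which genes and transcription factors differ in the ganglia of rats with neuropathic pain. The way the model was made, the strain, sex and age of the rats, the time of sampling, the spinal level of the ganglia and the side were not given in the sources used here. Whether each library stands for its own rat was not said either, so p-values measure the spread between libraries, which may be technical.

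When a peripheral nerve is damaged, the neurons whose axons are cut or compressed switch on a set of transcription factors led by Atf3, and then growth-associated proteins and neuropeptides such as galanin and neuropeptide Y. Nociceptors, the neurons that detect painful stimuli, carry their own channels and receptors (Trpv1, Trpa1, P2rx3, Nav1.8), while large-diameter neurons for touch and limb position carry others. Satellite glia, Schwann cells, macrophages, blood vessels, connective tissue and the meningeal sheath of the nerve roots surround them, and ganglion tissue can carry RNA from each. In such bulk tissue fewer cells of a type and less RNA per cell cannot be told apart.

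The 6 libraries held 26027334 to 50289652 reads counted on genes, with the deepest library in the sham group (replicate 2). Ganglion identity was plain: peripherin, a sensory-neuron intermediate filament, stood at 2488, 2915 and 2166 CPM in NPP replicates 1, 2 and 3 and at 3121, 1848 and 2674 CPM in sham replicates 1, 2 and 3. Of 10 genes listed for spinal cord, Olig1, Mnx1, Chat, Opalin, Gad2 and Mog had at most 22 reads in any of the 6 libraries. The 3 that were tested were lower in the pain model, with a median log2 fold change of -0.87: Gad1 was at 1.46, 1.08 and 0.462 CPM against 1.75, 2.59 and 1.62 CPM, Aqp4 at 7.18, 6.87 and 0.598 CPM against 9.75, 7.74 and 9.19 CPM, and Slc17a7, which sensory neurons also make, at 221, 254 and 234 CPM against 224, 285 and 231 CPM. Their part in other results was not tested. The libraries did not sort by group. NPP replicate 1 and sham replicate 2 were the closest pair of the 6 (r = 0.988 of log2 CPM across genes), above every pair within a group (0.967 to 0.983). Along the first principal component of the 6 libraries, which carried 38.8% of the variance, the NPP libraries stood at -25.1, 4.25 and -34.8 and the sham libraries at 57.3, -28.7 and 27.0. No pair of libraries agreed within sampling noise. The Y-linked gene Eif2s3y had 3200 to 6568 reads in each of the 6 libraries. In Ctrl replicates 2 and 3, which also enter the fit of 18 libraries, it had 1 and 0 reads. Npy and Stac2, which accompany injury as given below, went against the labels in single libraries: they were low in NPP replicate 3 and high in Ctrl_solvent replicate 3 and Sham_herb replicate 3, and whether any library was mislabelled was not tested. All results below take the labels as given. Throughout, levels are CPM, a gene's reads relative to all reads of its library, scaled by the trimmed mean of M-values and listed in the order of replicates 1, 2 and 3.

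No gene passed an adjusted p of 0.05 between the pain model and sham. Of 17043 genes tested with edgeR's quasi-likelihood test and Benjamini-Hochberg adjustment, 0 were called and the smallest adjusted p was 0.755. At an unadjusted p under 0.05 there were 967 genes (5.67% of those tested), of which 453 (2.66%) were higher and 514 (3.02%) were lower in the pain model. DESeq2 also called 0 genes and had 1139 at an unadjusted p under 0.05. The 3 NPP libraries all lay above the 3 sham libraries in 757 genes (4.44%) and all below them in 626 genes (3.67%), 1383 genes (8.11%) in all. The balance of directions depended on the processing. At an unadjusted p under 0.05, limma on log2(FPKM + 0.1) values gave 541 higher and 372 lower genes, and DESeq2 on counts 481 higher and 658 lower. These runs differ in unit, scaling and test, and the part of each was not tested. The median absolute log2 fold change over all genes tested was 0.17, and 535 genes differed by more than 1 on the log2 scale. The spread within groups was of that same order, with a median SD of 0.209 log2 CPM in the pain model and 0.249 in sham. The SD was larger in the pain model for 40.7% of genes. Because no gene was called, the genes below are described by their values in each library, by direction, and by unadjusted p. The gene lists were chosen with earlier results of these data known, so their counts are a description.

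Nerve injury genes were mostly higher in the pain model, but unevenly over its libraries. Of 33 genes tested from a list of 34 that damaged sensory neurons are known to raise, 26 were higher and 7 lower, with a median log2 fold change of 0.34 against 0.01 over all genes, 51.3% of which were above 0. An unadjusted p under 0.05 was reached by 6, all higher, against 2.66% of genes at background. All 3 NPP libraries were above all 3 sham libraries in 6 members, against 4.44% of all genes. The median of the list's levels, in log2 units relative to the mean of all 18 libraries, was 0.35, 0.13 and -0.09 in the NPP libraries and -0.22, -0.23 and -0.08 in the sham libraries. The list was thus highest in NPP replicate 1, and NPP replicate 3 lay beside sham replicate 3. The count of 6 higher members at an unadjusted p under 0.05 was 0 without sham replicate 1. It was 3 without NPP replicate 1 (median 0.20) or without sham replicate 2. Without NPP replicate 3 it was 6, with a median of 0.41. The count over all genes moved too, from 453 higher at that p to 203 without sham replicate 1 and 401 without NPP replicate 1. It was 1505 without sham replicate 2 and 161 without NPP replicate 3.

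Among the transcription and stress factors of the list, 8 of 10 were higher, with a median log2 fold change of 0.27. Atf3, the stress factor that marks axotomised neurons, was at 83.1, 39.4 and 13.97 CPM in the pain model and 12.96, 14.4 and 29.4 CPM in sham. NPP replicates 1 and 2 exceeded every sham library, while NPP replicate 3 lay among them, and the log2 fold change of 1.26 ± 1.01 (SE) had an unadjusted p of 0.233. Stat3, which relays cytokine signals and takes part in axon regrowth, was at 224, 215 and 232 CPM against 157, 199.8 and 192 CPM in sham. The groups did not overlap for Stat3, with a log2 fold change of 0.29 ± 0.10 (SE) and an unadjusted p of 0.0128. Smad1, a bone morphogenetic protein effector that supports axon growth, was likewise higher in each NPP library, at 30.6, 26.6 and 27.6 CPM against 19.1, 23.8 and 23.1 CPM. The Smad1 difference was 0.36 ± 0.13 (SE) on the log2 scale, with an unadjusted p of 0.0156. Jun, the partner of Atf3 in AP-1, was at 142, 106 and 85.5 CPM in the pain model and 72.9, 88.9 and 100.4 CPM in sham, so that NPP replicate 3 lay within the sham range. Sox11, a developmental factor that injury switches back on, was low throughout, at 2.43, 1.11 and 1.47 CPM against 0.406, 1.28 and 1.65 CPM. Ddit3, the effector of the unfolded protein response, went the other way, at 38.004, 39.1 and 24.7 CPM against 51.1, 32.7 and 50.3 CPM, with overlap. Gadd45a, a growth-arrest and DNA-damage gene, was at 73.8, 53.3 and 32.4 CPM against 47.02, 41.3 and 50.8 CPM, and its log2 difference of 0.20 changed sign without NPP replicate 1.

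Growth and cytoskeleton genes gave smaller differences, with 9 of 12 higher and a median log2 fold change of 0.30. Tubb2b, a beta-tubulin of growing axons, was at 572, 559 and 471 CPM in the pain model and 445, 352 and 467 CPM in sham. The ranges only just cleared each other, and the log2 fold change was 0.34 ± 0.17 (SE). Gap43, the growth-cone phosphoprotein, was at 479, 424 and 361 CPM against 419, 272 and 407 CPM, with overlapping ranges. Ankrd1, a mechanical-stress protein raised in cut sensory neurons, was at 1.61, 1.66 and 0.571 CPM against 0.488, 0.334 and 0.304 CPM and did not overlap. Its log2 fold change of 1.77 ± 1.01 (SE) rested on levels near 1 CPM. Sprr1a, an axon-outgrowth protein nearly silent in intact ganglia, had 33, 24 and 6 reads in the NPP libraries and 0, 2 and 11 reads in the sham libraries. Sham replicate 3 therefore held more Sprr1a reads than NPP replicate 3.

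Secreted and signalling genes of the list gave larger differences, with 9 of 11 higher and a median log2 fold change of 0.71. In edgeR 4 reached an unadjusted p under 0.05, all higher, against 2.66% of all genes. Reg3b, a secreted lectin induced in damaged neurons, stood at 7.78, 3.78 and 36.6 CPM in the pain model and 0.610, 0.471 and 1.55 CPM in sham. Every NPP library was above every sham library, and the log2 fold change was 4.24 ± 1.71 (SE), with an unadjusted p of 0.0284. Unlike Atf3, Reg3b was highest in NPP replicate 3. Outside the comparison, it was higher still in untreated Ctrl replicates 2 and 3, at 67.1 and 97.1 CPM, and reached 13.8 CPM in Ctrl_solvent replicate 3. Those 2 Ctrl libraries, unlike the 6 compared, had almost no reads of the Y-linked Eif2s3y (1 and 0), and the part of sex was not tested. Ecel1, a neuronal endopeptidase induced by axon damage, was at 11.3, 4.89 and 2.26 CPM against 1.63, 2.04 and 2.97 CPM, and NPP replicate 3 fell within the sham range. Its log2 fold change was 1.46 ± 0.56 (SE), with an unadjusted p of 0.0188. Cacna2d1, the calcium channel subunit that gabapentin binds, was at 13.6, 3.95 and 14.2 CPM against 2.11, 5.60 and 2.87 CPM. NPP replicates 1 and 3 were high, NPP replicate 2 was below sham replicate 2, and the log2 fold change was 1.57 ± 0.60 (SE). Bdnf, a growth factor that sensory neurons release in the spinal cord, was at 22.03, 19.4 and 45.1 CPM against 14.996, 14.4 and 20.97 CPM, with an unadjusted p of 0.0454. The Bdnf difference was carried mainly by NPP replicate 3. Csf1, the growth factor by which injured neurons activate microglia, was at 24.7, 17.1 and 14.4 CPM against 14.7, 18.8 and 15.97 CPM, with overlapping ranges.

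**Figure D1:**
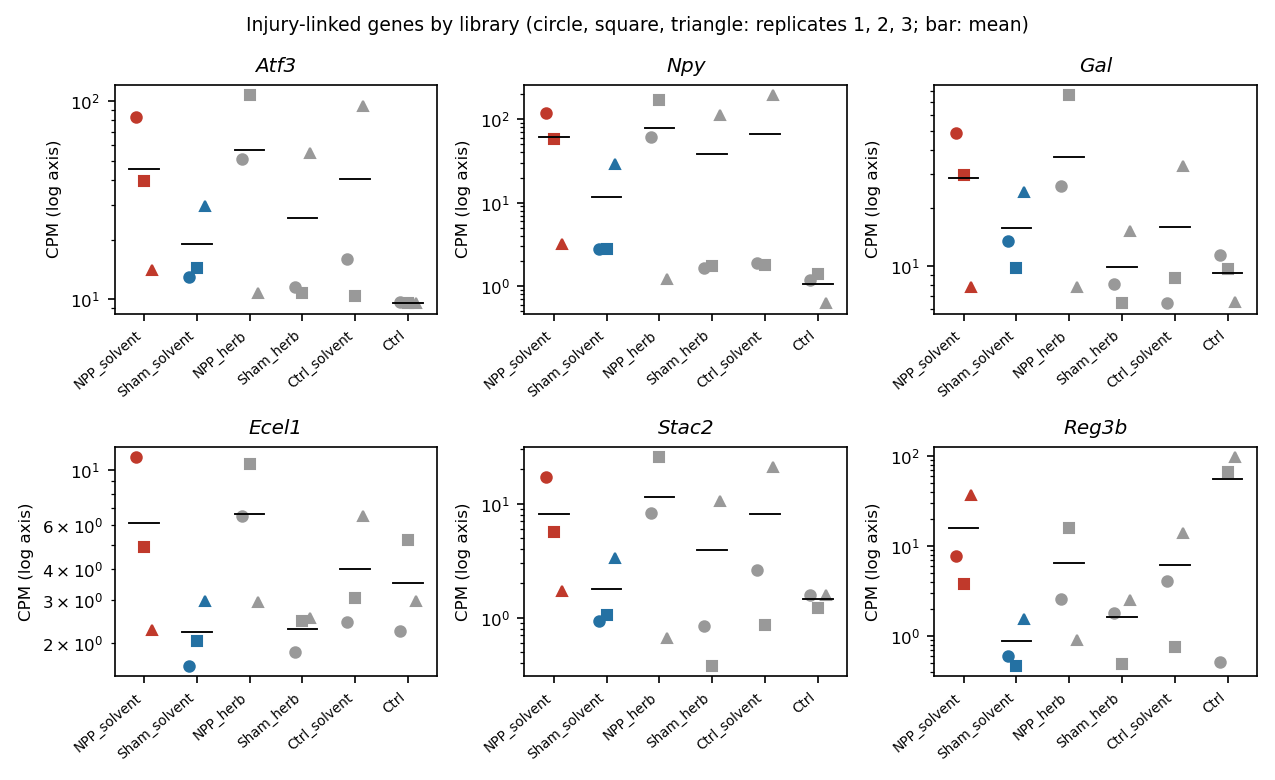
Levels of 6 injury-linked genes (CPM, log axis) in every library of the 6 groups; each symbol is a library (circle, square and triangle for replicates 1, 2 and 3) and each bar a group mean, with NPP_solvent in red, Sham_solvent in blue and the other groups in grey. Atf3, Npy, Gal, Ecel1 and Stac2 share an order over the NPP_solvent libraries, replicate 1 highest and replicate 3 lowest, while Reg3b was highest in replicate 3 (36.6 CPM).

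Npy and Gal, among the injury-linked neuropeptides, were ordered like Atf3 over the NPP libraries. Of 13 tested from a list of 14, 10 were higher and 3 lower, with a median log2 fold change of 0.32. In edgeR 1 reached an unadjusted p under 0.05, near the 5.67% of all genes. Npy (neuropeptide Y), which is nearly absent from intact sensory neurons, was at 120.5, 58.2 and 3.18 CPM in the pain model and 2.76, 2.75 and 29.3 CPM in sham. NPP replicate 3 was at the level of sham replicates 1 and 2, and sham replicate 3 lay between NPP replicates 2 and 3, so the log2 fold change of 2.39 ± 2.13 (SE) was close to its error. Gal (galanin) had the same order over the NPP libraries, at 48.5, 29.4 and 7.80 CPM against 13.5, 9.80 and 24.05 CPM. Vip (vasoactive intestinal peptide) was at 12.8, 1.04 and 1.41 CPM against 0.447, 0.314 and 5.07 CPM, high in NPP replicate 1 and next highest in sham replicate 3. Its log2 difference of 1.39 turned to -0.64 without NPP replicate 1. Adcyap1, which encodes the peptide PACAP, did not overlap, at 129, 95.9 and 110.5 CPM against 65.3, 63.8 and 93.04 CPM, with a log2 fold change of 0.59 ± 0.29 (SE) and an unadjusted p of 0.0583. Nts (neurotensin) was at 0.935, 1.35 and 1.25 CPM against 1.22, 0.707 and 1.01 CPM, with overlap. Crh (corticotropin-releasing hormone) split both groups, at 0.898, 14.6 and 0.489 CPM against 27.7, 0.413 and 21.5 CPM. Npy1r, the receptor through which neuropeptide Y inhibits sensory neurons, was higher in each NPP library, at 59.5, 49.4 and 60.9 CPM against 35.6, 43.9 and 40.1 CPM. The Npy1r log2 fold change was 0.51 ± 0.15 (SE), and its unadjusted p 0.00342. Neither Npy nor Gal gave a group difference beyond the spread between libraries, while the libraries of the groups were apart for Npy1r.

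The genes whose pattern over the 6 libraries was most like that of Atf3 were looked for among 1560 candidates that varied enough to be ranked. The highest Pearson correlations of log2 CPM were with Pde6b (0.987), Stac2 (0.986), Ecel1 (0.977), Npy (0.974), Kcnk13 (0.960), Gal (0.951), Csrp3 (0.931), Cldn4 (0.898), Cckbr (0.896) and Gabra5 (0.893). Over the 12 libraries that were not used to pick them, 8 of these genes again had correlations above 0.8 with Atf3. Npy gave 0.986, Csrp3 0.963, Pde6b 0.957, Stac2 0.953, Cldn4 0.948, Gabra5 0.943, Gal 0.902 and Cckbr 0.870. Ecel1 gave 0.711 and Kcnk13 -0.149. The median over all candidates was 0.115, and 1.22% of them were above 0.8. Stac2, an adaptor of calcium channels, was at 17.2, 5.58 and 1.71 CPM in the pain model and 0.935, 1.06 and 3.34 CPM in sham. Csrp3, a muscle LIM protein that injured sensory neurons also make, was at 19.04, 3.23 and 0.761 CPM against 0.0406, 0.471 and 3.28 CPM. In both genes NPP replicate 1 was highest, NPP replicate 3 was below sham replicate 3, and the order within each group was that of Atf3. High levels were not confined to the pain model: Npy was at 196 CPM in Ctrl_solvent replicate 3 and 112 CPM in Sham_herb replicate 3, against 1.89 and 1.79 CPM in the other Ctrl_solvent libraries and 1.65 and 1.75 CPM in the other Sham_herb libraries. The 3 untreated Ctrl libraries were at 1.18, 1.41 and 0.620 CPM. The correlations describe libraries that share their depth and tissue makeup, and no test was applied to them.

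**Figure D2:**
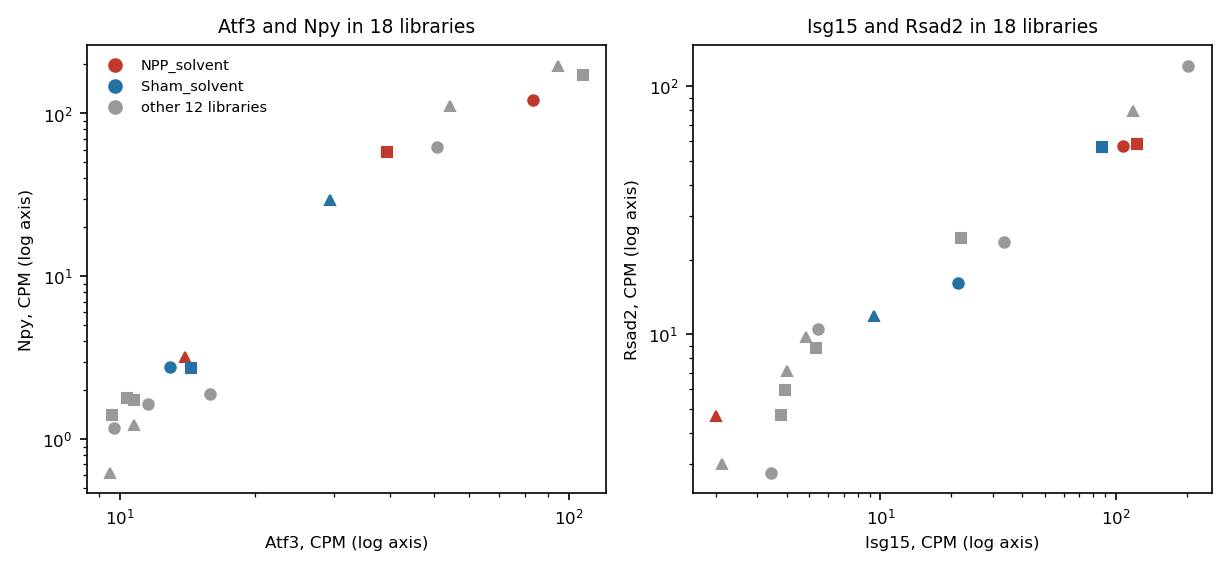
Levels (CPM, log axes) of Npy against Atf3 and of Rsad2 against Isg15 in all 18 libraries, 1 point a library, with NPP_solvent in red, Sham_solvent in blue and the others in grey. Both pairs moved together over the libraries whatever their group: Npy and Atf3 had r = 0.986, and Rsad2 and Isg15 r = 0.973, over the 12 libraries outside the comparison.

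Nociceptor genes were slightly higher in the pain model. All 26 of the list were tested, 24 were higher and 2 lower, and the median log2 fold change was 0.24. An unadjusted p under 0.05 was reached by 6 members, all higher, against 2.66% at background. The list level was 0.04, 0.04 and 0.20 log2 units in the NPP libraries and -0.26, -0.05 and -0.20 in the sham libraries, so that the groups were apart by a small margin. All 9 channels and all 9 receptors of the list were higher. Trpv1, the capsaicin and heat channel, was at 98.8, 87.8 and 90.3 CPM in the pain model and 54.3, 73.9 and 66.1 CPM in sham. No sham library reached the NPP range, and the log2 fold change was 0.51 ± 0.16 (SE), with an unadjusted p of 0.00533. Trpa1, the irritant channel, was at 40.3, 22.8 and 56.2 CPM against 11.5, 28.8 and 19.7 CPM, with NPP replicate 2 below sham replicate 2. Its log2 fold change was 0.99 ± 0.38 (SE), with an unadjusted p of 0.0202. P2rx3, the ATP receptor of non-peptidergic nociceptors, did not overlap, at 426, 439.7 and 474 CPM against 348, 391.6 and 342 CPM, and had a log2 fold change of 0.31 ± 0.13 (SE).

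Nociceptor sodium channels and regulators were placed likewise. Scn10a (Nav1.8) was at 280.1, 311 and 399 CPM against 237, 292 and 205 CPM, with an overlap at NPP replicate 1 and sham replicate 2 and a log2 fold change of 0.43 ± 0.19 (SE). Scn11a (Nav1.9) did not overlap, at 276, 316 and 296 CPM against 268, 275 and 219 CPM. Prdm12, a chromatin regulator needed to form nociceptors, was at 31.7, 33.2 and 34.5 CPM against 13.2, 31.3 and 22.3 CPM, where sham replicates 1 and 3 were low and sham replicate 2 was close to the NPP libraries. Runx1, which directs nociceptor subtype, was at 30.4, 33.1 and 34.3 CPM against 26.7, 28.1 and 27.4 CPM, apart in all libraries but by a log2 fold change of only 0.25 ± 0.11 (SE). The peptide genes of nociceptors differed less. Calca, which encodes calcitonin gene-related peptide, was at 1054, 1120.1 and 1254 CPM against 1196, 811 and 1152 CPM, and Tac1, which encodes substance P, at 121, 145 and 125 CPM against 126, 79.5 and 132 CPM. Both overlapped, and both log2 differences (0.12 and 0.21) turned to below 0 without sham replicate 2. The count of nociceptor members at an unadjusted p under 0.05 was 1 without NPP replicate 3 or without sham replicate 1, and 2 without sham replicate 3. Over all genes, 161, 203 and 260 were higher at that p in these fits, instead of 453.

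Sodium, calcium and HCN channels, which set how readily the axon fires, had 14 of 19 members higher, with a median log2 fold change of 0.23. In edgeR 5 members reached an unadjusted p under 0.05, all higher, against 2.66% of all genes. That count was 1 without NPP replicate 3 or sham replicate 3, and 2 without NPP replicate 1 or sham replicate 1. It was 8 without NPP replicate 2 or sham replicate 2. The count over all genes moved too, from 453 higher at that p to 161 without NPP replicate 3 and 260 without sham replicate 3. It was 401 without NPP replicate 1 and 203 without sham replicate 1, and 743 without NPP replicate 2 and 1505 without sham replicate 2. Scn3b, a beta subunit of sodium channels, was at 90.4, 76.03 and 111 CPM in the pain model and 56.7, 68.7 and 58.3 CPM in sham, without overlap. The log2 fold change of Scn3b was 0.59 ± 0.18 (SE), with an unadjusted p of 0.00502. Cacna1b, the N-type calcium channel of nerve terminals, was at 67.3, 61.7 and 81.7 CPM against 47.7, 60.9 and 52.8 CPM and was also apart. Cacna2d2, another subunit that binds gabapentin, was at 50.8, 47.9 and 59.3 CPM against 31.5, 45.3 and 36.5 CPM, and Hcn3, a pacemaker channel, at 21.6, 16.2 and 19.4 CPM against 12.8, 17.7 and 15.7 CPM.

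Potassium channels, which damp firing, were mixed, with 12 of 20 higher and a median log2 fold change of 0.09, which was 0.20 without sham replicate 2, 0.02 without sham replicate 1 or sham replicate 3, and near 0 without NPP replicate 3. Kcnn1, a calcium-activated channel, was at 8.68, 8.32 and 11.99 CPM against 6.54, 6.52 and 7.06 CPM, apart in all libraries, with a log2 fold change of 0.53 ± 0.18 (SE). Kcnk18 (TRESK), a background channel of sensory neurons, was at 1.80, 1.42 and 3.34 CPM against 0.163, 1.83 and 0.304 CPM, where sham replicate 2 lay within the NPP range. Kcns1, a modifier of delayed-rectifier channels in large neurons, was lower in each NPP library, at 65.7, 83.8 and 61.7 CPM against 85.8, 95.3 and 97.4 CPM, with a log2 fold change of -0.40 ± 0.20 (SE). Kcna2, the juxtaparanodal channel, overlapped in part, at 247, 258 and 345 CPM against 227, 331 and 222 CPM. Opioid and GABA genes, which mediate inhibition, had 10 of 15 higher, a median log2 fold change of 0.23 (0.11 without NPP replicate 3) and 0 at an unadjusted p under 0.05 in edgeR.

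The relation of level to gene length, computed from these same libraries, differed between them, and some channel genes are long. Across 13132 genes with a length, the log2 fold change correlated with log2 gene length (r = 0.306, genes not being independent replicates). The slope of level on log2 length was 0.0093, -0.0423 and 0.123 in the NPP libraries and -0.165, 0.0777 and -0.0811 in the sham libraries, so that NPP replicate 3 and sham replicate 1 lay at the opposite ends. With that slope as a covariate in edgeR, the sodium, calcium and HCN channels had 1 member higher and 1 lower at an unadjusted p under 0.05, instead of 5 higher. Their direction was kept, with 12 of 19 higher and a median log2 fold change of 0.13. The nociceptor list had 5 members at that p, instead of 6. Over all genes 287 were higher at that p, instead of 453. The potassium channel median was then -0.05. Beyond that fit, the part of gene length was not tested.

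Large-diameter neuron genes were mostly lower. Of 13 tested, 10 were lower and 3 higher, with a median log2 fold change of -0.17 (-0.26 without NPP replicate 3) and 3 at an unadjusted p under 0.05, against 3.02% of genes at background. Pvalb (parvalbumin), a calcium buffer of proprioceptors, was at 192, 284 and 187 CPM in the pain model and 500.0, 258 and 319.6 CPM in sham. Only NPP replicate 2 entered the sham range, and the log2 fold change was -0.70 ± 0.28 (SE), with an unadjusted p of 0.0239. Vsnl1, a neuronal calcium sensor, was lower in every NPP library, at 211, 189 and 228 CPM against 248, 285 and 269 CPM, with an unadjusted p of 0.00699. Pan-neuronal genes had a median log2 fold change of 0.08 over 10 members, and of 0.03 without NPP replicate 2 or sham replicate 1. Satellite glia (10 members) and myelinating Schwann cell genes (12 members) each had a median of -0.03 and 0 members at an unadjusted p under 0.05 in edgeR. Both medians were above 0 without sham replicate 1 (0.03 and 0.07), and single libraries moved them between -0.09 and 0.03 and between -0.18 and 0.07. Gfap, an intermediate filament that glia take up after injury, was higher in every NPP library, at 21.5, 19.1 and 15.5 CPM against 12.3, 11.1 and 7.70 CPM, with a log2 fold change of 0.85 ± 0.43 (SE) and an unadjusted p of 0.0662.

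Connective tissue genes were mostly lower in the pain model, apart from the collagens and fibronectin. In the fibroblast and matrix list, 10 of 16 were lower and 6 higher, the median log2 fold change was -0.34, and 8 reached an unadjusted p under 0.05, all lower, against 3.02% of all genes. This list too was chosen with earlier results of these data known, so its count is a description only. Ptgds, Foxd1 and Slc47a1 of this list are also in the meningeal list below, so the counts of these lists are not separate results. Igf2, a growth factor of mesenchyme and meninges, was at 14.6, 5.10 and 5.11 CPM in the pain model and 27.3, 15.4 and 23.9 CPM in sham. Each NPP library was below each sham library, though NPP replicate 1 came close to sham replicate 2, and the log2 fold change was -1.43 ± 0.37 (SE), with an unadjusted p of 0.00155. Fbln1, an elastic-fibre protein, was at 11.6, 9.19 and 8.70 CPM against 15.4, 14.8 and 15.6 CPM, with a log2 fold change of -0.63 ± 0.20 (SE). Ogn, a small matrix proteoglycan, was at 66.5, 51.96 and 59.7 CPM against 112, 92.6 and 105 CPM, again without overlap. The collagen genes did not follow. Col1a1 was at 238, 276 and 727 CPM against 382, 245 and 308 CPM and Col3a1 at 206, 243 and 887 CPM against 426, 226 and 348 CPM. Fn1 (fibronectin) was at 36.2, 39.2 and 208 CPM against 60.4, 43.5 and 56.3 CPM. In these 3 matrix genes NPP replicate 3 was far above the other 5 libraries, and without it all 16 members of the list were lower, with a median of -0.58. The collagen and matrix genes thus parted from Igf2, Fbln1 and Ogn in 1 library.

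Because Slc22a8, Gjb2 and Cemip headed the genes that were lower, a list of 20 genes known from the meninges was drawn up after their values had been seen, and its counts are a description only. Of these 20, 19 were lower, with a median log2 fold change of -1.005. An unadjusted p under 0.05 was reached by 15 (3.02% of all genes were lower at that p), and 9 were without overlap (3.67% of all genes), but the choice of genes used this same contrast, so nothing is read from these shares. Summed FPKM over the 20 genes was 340, 226 and 155 in the NPP libraries and 1226, 408 and 502 in the sham libraries. Sham replicate 1 thus held the most, and every NPP library lay below every sham library. Ptgds alone made up 226, 119 and 24.4 FPKM of these sums in the NPP libraries and 1048, 282 and 312 FPKM in the sham libraries. The order of the sums therefore rests largely on this 1 gene. Slc22a8, an organic anion transporter, had 7, 3 and 7 reads in the NPP libraries and 96, 50 and 28 reads in the sham libraries. Its log2 fold change was -3.35 ± 0.73 (SE). Slc22a8 met the minimum of 1 CPM on average only through the sham libraries, mainly replicate 1, at 0.262, 0.104 and 0.190 CPM against 3.90, 0.982 and 0.946 CPM. Gjb2 (connexin 26), a gap junction protein, was at 2.43, 1.73 and 1.39 CPM against 4.999, 3.10 and 4.39 CPM, with a log2 fold change of -1.17 ± 0.28 (SE). Cemip, which degrades hyaluronan, was at 4.94, 4.44 and 3.97 CPM against 10.4, 7.31 and 6.21 CPM. Ptgds, the prostaglandin D synthase of the meninges, was at 193, 101 and 20.5 CPM against 940.1, 237 and 265 CPM, from the lowest value in NPP replicate 3 to the highest in sham replicate 1. Slc47a1, a cation extruder, was at 2.84, 2.08 and 1.28 CPM against 10.3, 3.83 and 6.82 CPM. Aldh1a2, which makes retinoic acid, was at 1.80, 0.555 and 0.326 CPM against 7.48, 3.54 and 2.47 CPM, and Foxd1, a transcription factor of mesenchyme, at 2.17, 1.18 and 1.66 CPM against 3.74, 2.81 and 5.57 CPM. The groups did not overlap in these 5 genes either. Without sham replicate 1, 8 of the 20 were lower at an unadjusted p under 0.05 in edgeR, as were 174 of all genes. How much sheath tissue each ganglion carried was not measured, and its part in these values was not tested.

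**Figure D3:**
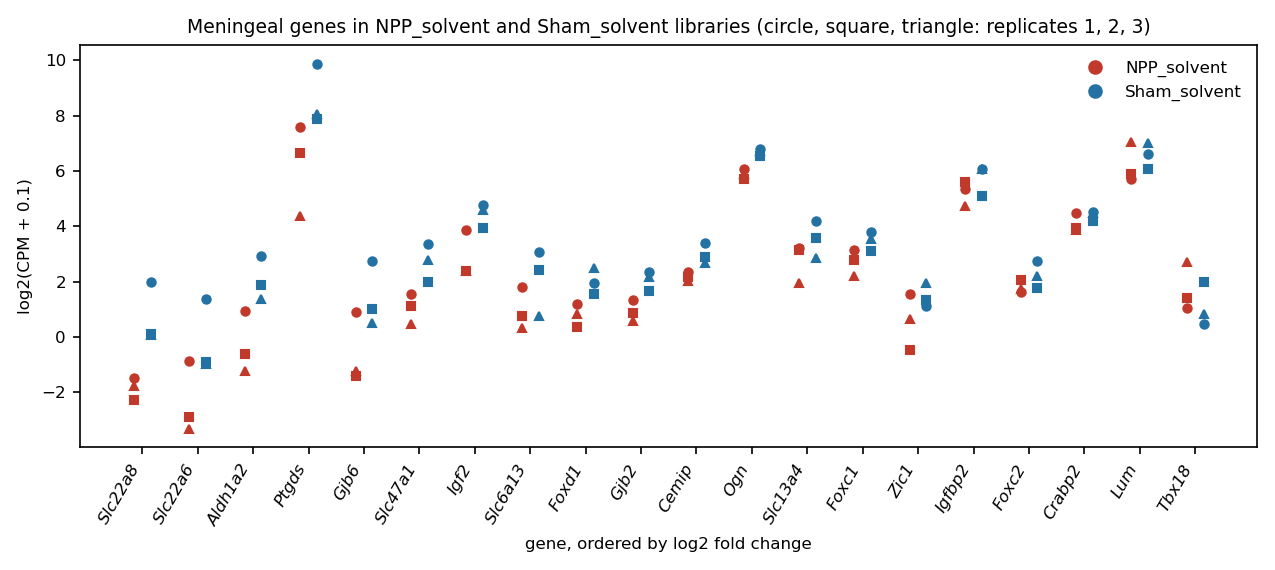
Levels of the 20 meningeal genes (log2(CPM + 0.1)) in the 6 libraries, red for NPP_solvent and blue for Sham_solvent, with circle, square and triangle for replicates 1, 2 and 3. Genes run along the horizontal axis and levels upward, and the sideways shift between the groups is for display only. Of the 20 genes, 19 were lower in the pain model, and for Ptgds sham replicate 1 was highest.

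Vessel genes were mixed, with 10 of 16 lower, and 8 of 16 without sham replicate 1. Plvap, a protein of fenestrated endothelium, was at 5.31, 6.94 and 5.25 CPM in the pain model and 14.02, 8.07 and 8.41 CPM in sham, and Tagln, a contractile protein of mural cells, at 21.7, 23.9 and 19.6 CPM against 61.4, 24.1 and 42.8 CPM. Both were lower in every NPP library. Rgs5, a pericyte marker, went the other way, at 4.60, 3.23 and 11.9 CPM against 1.79, 3.56 and 3.58 CPM, where NPP replicate 3 was highest.

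Markers of blood-borne cells were lower in the pain model. Hemoglobin reads were 0.00212%, 0.00508% and 0.0155% of all reads in the NPP libraries and 0.0113%, 0.00265% and 0.0815% in the sham libraries. All 12 neutrophil genes tested of 14 were lower, with a median log2 fold change of -1.11, 1 member at an unadjusted p under 0.05 (3.02% of all genes were lower at that p) and 4 without overlap (3.67% of all genes). The count of 1 is close to the background. S100a8, an abundant neutrophil alarmin, was at 14.4, 16.6 and 16.01 CPM in the pain model and 37.02, 31.2 and 58.02 CPM in sham. All NPP libraries were below all sham libraries, yet the log2 fold change of -1.42 ± 0.71 (SE) had an unadjusted p of 0.0664. Cd177, a neutrophil surface protein, was at 0.187, 0.277 and 0.761 CPM against 1.06, 1.02 and 2.57 CPM, with an unadjusted p of 0.0211. Of 13 red blood cell genes 12 were lower, with a median of -1.59. Hba-a1, an alpha globin, was at 8.12, 21.4 and 61.4 CPM against 49.6, 9.51 and 313 CPM, with the groups overlapping. Sham replicate 3 had the most hemoglobin of the 6 and also the highest neutrophil level, and without it the red cell median was -0.11 and 8 of 13 were lower. The neutrophil median was then -0.78, with 9 of 12 lower. How much blood each ganglion held was not recorded, and its part in the neutrophil values was not tested.

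Macrophage genes were 12 higher and 7 lower of 19, with a median log2 fold change of 0.07. The direction turned with single libraries: 7 were higher and 12 lower without NPP replicate 1 (median -0.14), and 8 were higher and 11 lower without sham replicate 1 (-0.05) or sham replicate 3 (-0.02). The median was 0.03 without NPP replicate 2, 0.27 without NPP replicate 3 and 0.34 without sham replicate 2. Cx3cr1, the fractalkine receptor of resident macrophages, was at 1.20, 1.04 and 0.707 CPM in the pain model and 0.325, 0.511 and 0.270 CPM in sham, higher in every NPP library but near 1 CPM. Lyve1, a marker of vessel-associated macrophages, was lower, at 2.47, 2.29 and 4.54 CPM against 8.74, 3.36 and 7.97 CPM, with an unadjusted p of 0.0209. The Lyve1 groups overlapped only at NPP replicate 3 and sham replicate 2.

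Interferon-stimulated genes varied widely between libraries and split each group. Of 33 tested, 32 were higher in the pain model and 1 lower, with a median log2 fold change of 0.43, but 0 reached an unadjusted p under 0.05 in edgeR. The list level was 1.46, 1.34 and -0.98 log2 units in the NPP libraries and -0.34, 1.68 and -0.71 in the sham libraries. NPP replicates 1 and 2 and sham replicate 2 were therefore high, and NPP replicate 3 with sham replicates 1 and 3 low. Promoter sequences are shown for 5 of these genes because most of the list moved together over libraries. Interferon acts through the interferon-stimulated response element, a short motif in the promoters of the genes it induces. Sequences are from RefSeq on build GRCr8, 250 bases before to 50 after the gene's start, 300 bases each, 5′ to 3′ on the gene's strand, with the element's core (GAAA, any 2 bases, GAAA) on either strand in capitals. The Irf7 window is chr1:205799974-205800273, minus strand. The Rsad2 window is chr6:48788071-48788370, minus strand. The Ifit3 window is chr1:241527076-241527375, plus strand. The Oas1a window is chr12:41330216-41330515, plus strand. The Bst2 window is chr16:18254918-18255217, minus strand.
Irf7: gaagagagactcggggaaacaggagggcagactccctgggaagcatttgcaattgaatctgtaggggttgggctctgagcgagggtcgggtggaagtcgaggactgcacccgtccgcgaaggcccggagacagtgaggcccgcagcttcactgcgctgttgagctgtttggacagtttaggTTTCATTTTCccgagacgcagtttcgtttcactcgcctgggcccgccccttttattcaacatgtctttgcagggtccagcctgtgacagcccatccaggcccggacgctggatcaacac
Rsad2: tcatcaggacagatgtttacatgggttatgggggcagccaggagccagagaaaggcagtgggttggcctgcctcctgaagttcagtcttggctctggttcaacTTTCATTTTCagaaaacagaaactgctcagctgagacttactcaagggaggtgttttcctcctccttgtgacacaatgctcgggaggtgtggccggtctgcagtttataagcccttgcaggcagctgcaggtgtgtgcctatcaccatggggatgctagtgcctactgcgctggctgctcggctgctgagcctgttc
Ifit3: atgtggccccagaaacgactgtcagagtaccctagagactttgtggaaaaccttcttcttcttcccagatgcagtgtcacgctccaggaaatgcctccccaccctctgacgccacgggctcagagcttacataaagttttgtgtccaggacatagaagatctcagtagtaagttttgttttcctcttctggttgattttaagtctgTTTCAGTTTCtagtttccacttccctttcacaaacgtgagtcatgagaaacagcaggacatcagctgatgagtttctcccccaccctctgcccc
Oas1a: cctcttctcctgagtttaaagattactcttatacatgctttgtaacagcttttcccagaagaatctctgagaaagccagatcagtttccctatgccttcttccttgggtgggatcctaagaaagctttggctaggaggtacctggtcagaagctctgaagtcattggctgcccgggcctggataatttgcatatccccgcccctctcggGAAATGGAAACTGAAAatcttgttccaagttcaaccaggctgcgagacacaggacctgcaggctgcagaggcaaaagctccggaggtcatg
Bst2: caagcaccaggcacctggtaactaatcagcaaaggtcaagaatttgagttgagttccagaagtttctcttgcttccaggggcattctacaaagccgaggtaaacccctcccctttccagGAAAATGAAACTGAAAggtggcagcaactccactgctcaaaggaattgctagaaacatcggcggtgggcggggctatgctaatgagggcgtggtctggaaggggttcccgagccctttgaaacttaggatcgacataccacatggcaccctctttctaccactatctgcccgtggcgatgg
Oas1a and Bst2 each hold a pair of overlapping cores, printed as 1 run of capitals.

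Searched on both strands, this core was in 15 of the 22 interferon-stimulated promoters that matched by symbol (68.2%; 33 genes were sought) and in 1034 of all 27457 promoters (3.77%). It was in 0 of 23 injury-gene promoters and 0 of 12 neuropeptide promoters. The AP-1 motif TGACTCA, which Atf3 and Jun complexes can bind, was in 3 of the 23 injury-gene promoters (13.0%), in 1 of 22 interferon-stimulated ones and in 4.53% of all promoters. The cyclic AMP element TGACGTCA was in 1 of the 23 injury promoters and 1.91% of all. A match is a run of letters in this window and does not show that a factor bound it.

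The genes shown followed the same split. Irf7, the amplifier of interferon production, was at 126, 161 and 8.07 CPM in the pain model and 15.6, 124 and 13.1 CPM in sham. Rsad2 (viperin), an antiviral enzyme, was at 57.4, 58.5 and 4.68 CPM against 16.1, 57.05 and 11.9 CPM. Oas1a, a sensor of double-stranded RNA, was at 59.96, 49.1 and 2.88 CPM against 9.998, 55.7 and 4.12 CPM. Ifit3, an antiviral adaptor, was at 28.7, 12.5 and 1.71 CPM against 7.19, 29.6 and 2.06 CPM, and Bst2 (tetherin), which holds virus at the cell surface, at 49.002, 44.8 and 7.69 CPM against 19.2, 42.2 and 21.5 CPM. In each of these 5 genes NPP replicate 3 was the lowest of the 6, and sham replicate 2 stood with NPP replicates 1 and 2. Isg15, a ubiquitin-like modifier, was at 108, 123.3 and 2.01 CPM against 21.3, 86.9 and 9.39 CPM, with a log2 fold change of 0.97 ± 1.30 (SE) and an unadjusted p of 0.466. The list's median depended on single libraries: it was 0.05 without NPP replicate 1 and 1.501 without sham replicate 2, when 5 members reached an unadjusted p under 0.05. In that fit without sham replicate 2, 1505 of all 17043 genes were higher at that p, instead of 453. The list's median was 0.08 without sham replicate 3, 0.16 without sham replicate 1, 0.23 without NPP replicate 2 and 0.83 without NPP replicate 3.

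Genes most like Isg15 over the 6 libraries were Rsad2 (r = 0.993), Psmb8 (0.992), Tmem140 (0.990), Tap1 (0.989), Tap2 (0.989), Slamf9 (0.987), Xaf1 (0.986), Mocos (0.982), Nlrc5 (0.980) and Ifitm3 (0.978). Psmb8, Tap1, Tap2 and Nlrc5 serve antigen presentation by class I molecules. Over the other 12 libraries 9 of the 10 stayed above 0.8, from 0.882 for Tmem140 to 0.978 for Xaf1, and Mocos gave 0.151. There 10.3% of all candidates were above 0.8, and the median was 0.0809. The interferon order of the libraries differed from that of Atf3: sham replicate 2 was high for interferon genes and low for Atf3. Class II genes had another order again, all 8 lower without NPP replicate 1 and all 8 higher without NPP replicate 3, with Cd74, the invariant chain, at 294, 106 and 63.99 CPM in the pain model and 151, 161 and 187 CPM in sham.

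**Figure D4:**
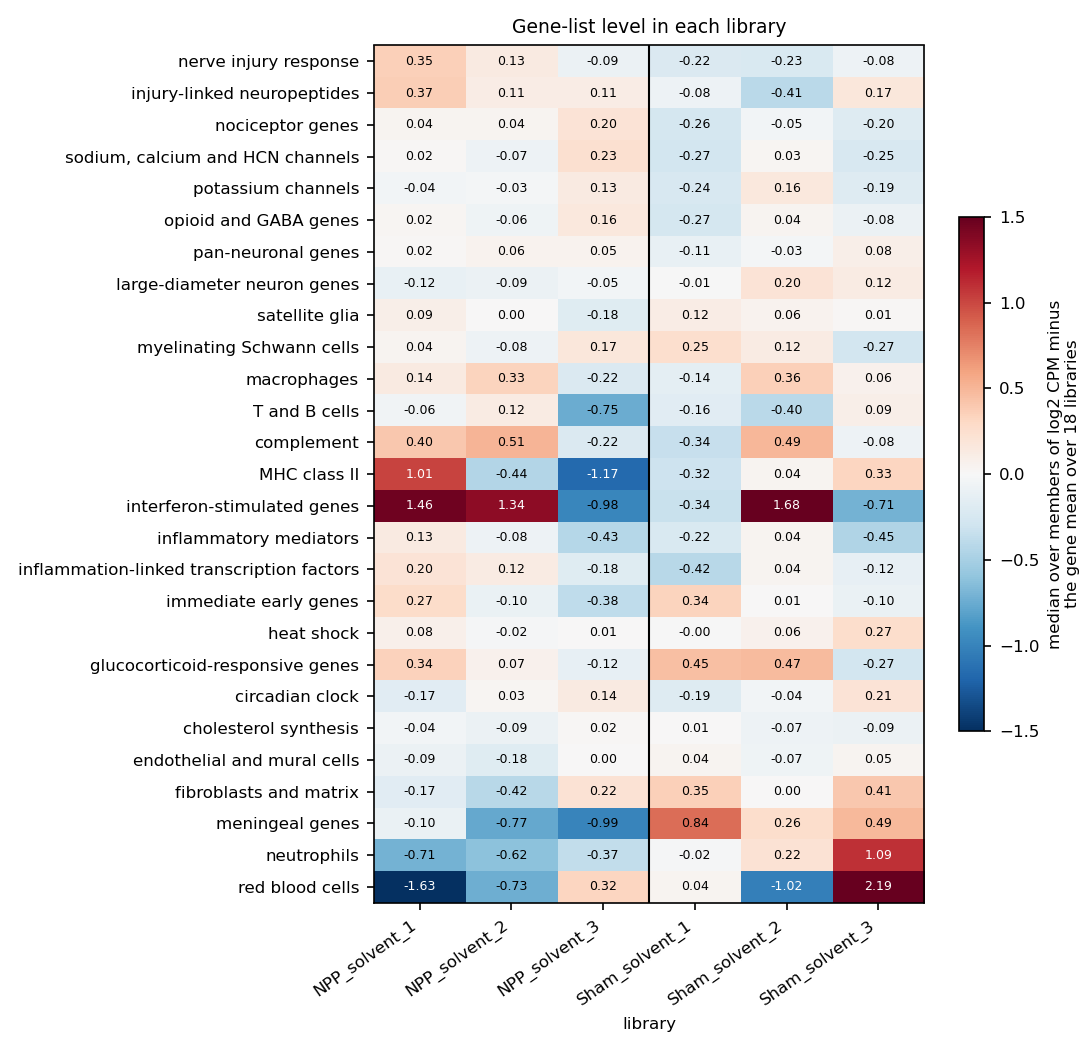
Heat map of 27 gene lists (rows) in the 6 libraries (columns); colour gives the median over each list of log2 CPM relative to the mean of all 18 libraries. Interferon-stimulated genes are high in NPP replicates 1 and 2 and sham replicate 2 (1.46, 1.34 and 1.68), and meningeal genes are below 0 in the 3 NPP libraries and above 0 in the 3 sham libraries.

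Inflammatory mediators, which the study's title names, were about evenly split between higher and lower in the pain model. Of 19 tested from a list of 26, 11 were higher and 8 lower, with a median log2 fold change of 0.13 (0.23 without sham replicate 2). The 1 member at an unadjusted p under 0.05 is near the 5.67% of all genes. Il1b, the cytokine interleukin-1 beta, was at 1.31, 1.08 and 1.06 CPM in the pain model and 0.203, 1.06 and 1.38 CPM in sham. Only sham replicate 1 stood apart, and the log2 difference of 0.35 turned to -0.09 without it. Tnf was at 0.0748, 0.208 and 0.217 CPM against 0.0406, 0.177 and 0.0338 CPM, a few reads in each library. Il6 had 6, 2 and 7 reads in the NPP libraries and 1, 0 and 4 in the sham libraries and was too low to test. Ccl2, a monocyte attractant, was at 12.9, 14.5 and 23.4 CPM against 16.1, 8.72 and 21.8 CPM, and Cxcl10, an interferon-induced chemokine, at 16.6, 13.8 and 3.48 CPM against 20.4, 15.8 and 4.22 CPM. The groups overlapped for both chemokines. Il33, an alarmin of glia and connective tissue, was the member at an unadjusted p under 0.05 (0.024), lower in the pain model at 77.7, 62.02 and 51.2 CPM against 77.5, 93.6 and 98.7 CPM. NPP replicate 1 and sham replicate 1 were level for Il33.

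Complement genes were 15 higher and 2 lower of 17, with a median log2 fold change of 0.21. Without sham replicate 1 they were 9 higher and 8 lower, with a median of 0.02, and the median was 0.09 without NPP replicate 1, 0.10 without NPP replicate 2, 0.41 without NPP replicate 3 and 0.52 without sham replicate 2. Cd55, a regulator that protects cells from complement, was higher in every NPP library, at 306, 312 and 508 CPM against 227, 247 and 281 CPM, with a log2 fold change of 0.58 ± 0.24 (SE) and an unadjusted p of 0.0268. C4a followed the interferon split instead, at 152, 102 and 13.9 CPM against 11.99, 128 and 21.6 CPM.

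Transcription factors linked to inflammation had 18 of 25 members higher, with a median log2 fold change of 0.16. An unadjusted p under 0.05 was reached by 2 of them, both higher (2.66% of all genes were higher at that p). These were Stat3 and Runx1, which also count in the nerve injury and nociceptor lists. Irf7 also counts in the interferon list, so the counts of these lists are not separate results. In edgeR without sham replicate 1 the count was 0, and 203 of all genes were higher at that p. The median was 0.25 without sham replicate 2. The NF-kappaB subunit Nfkb1 was at 28.5, 24.04 and 26.4 CPM in the pain model and 17.6, 26.2 and 20.8 CPM in sham, and its partner Rela at 21.6, 27.6 and 22.1 CPM against 22.8, 18.9 and 22.4 CPM. Both overlapped. Cebpb, a factor of acute inflammation, was lower at 4.26, 6.73 and 3.18 CPM against 9.63, 5.01 and 6.75 CPM, with a log2 fold change of -0.59 ± 0.32 (SE). Spi1, the macrophage master factor PU.1, was at 4.002, 4.61 and 1.85 CPM against 2.52, 3.38 and 3.88 CPM, with overlapping ranges. Of 18 immediate early genes tested, which neuronal firing and handling both induce, 6 were higher and 12 lower, with a median of -0.06. They were 11 higher and 7 lower without NPP replicate 3, 10 higher and 8 lower without sham replicate 1, and 13 higher and 5 lower with the length slope covariate. The median was -0.24 without NPP replicate 1 and -0.17 without sham replicate 3. Fos was at 4.45, 2.53 and 2.23 CPM against 2.28, 4.05 and 3.55 CPM.

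Heat shock genes were lower in 12 of 15 members tested, with a median log2 fold change of -0.12. In edgeR 3 reached an unadjusted p under 0.05, all lower, against 3.02% of all genes. Hspa1b, an inducible chaperone, was at 22.4, 17.9 and 8.16 CPM in the pain model and 19.9, 23.5 and 72.7 CPM in sham, with sham replicate 3 far above the rest and the other 5 libraries overlapping. Without sham replicate 3 the list's median was 0.01. Glucocorticoid-responsive genes were lower in 11 of 13, with a median of -0.11. Without NPP replicate 3, sham replicate 1 or sham replicate 2 they were 6 higher and 7 lower, with a median of -0.02 each time, and the median was -0.19 without NPP replicate 1 and -0.35 without sham replicate 3. Tsc22d3 (GILZ), a classic steroid target, was at 288, 228 and 205 CPM against 338, 313 and 283 CPM, with an unadjusted p of 0.0221. Hlf, an output gene of the circadian clock, was at 3.03, 2.53 and 3.86 CPM against 5.69, 3.06 and 8.54 CPM, while the clock list had 7 higher and 8 lower of 15 and a median of -0.01. Without sham replicate 3 the clock list had 12 higher and a median of 0.13. The hour at which tissue was taken was not given in the sources used here.

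Over all genes, the 10 of each direction with the smallest unadjusted p were ranked among genes with at least 1 CPM on average and groups that did not overlap, and all had an adjusted p of 0.755 in edgeR's quasi-likelihood test. Among the higher genes, Tmem158, a membrane protein induced by Ras signalling, was at 11.4, 13.1 and 6.01 CPM in the pain model and 4.75, 3.34 and 3.58 CPM in sham, with a log2 fold change of 1.39 ± 0.34 (SE). Ptprt, a receptor tyrosine phosphatase, was at 34.4, 30.1 and 48.4 CPM against 18.7, 21.9 and 22.2 CPM, with NPP replicate 3 highest. Bves, a cyclic-AMP-binding membrane protein, was at 14.3, 16.4 and 22.02 CPM against 10.97, 11.8 and 12.5 CPM, and Slc29a4, a monoamine transporter, at 14.8, 16.96 and 18.5 CPM against 12.5, 9.41 and 12.5 CPM. Galns, a lysosomal sulfatase, was at 7.18, 8.91 and 10.6 CPM against 5.97, 5.48 and 6.32 CPM. Gab2, a signalling adaptor, had a log2 fold change of 0.40 ± 0.12 (SE), Tmem214 0.36 ± 0.11, Prelid2 0.31 ± 0.09, and Colgalt1, a collagen galactosyltransferase, 0.30 ± 0.09. Npy1r, described above, was the remaining one.

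Lower genes of that ranking included Slc22a8, Gjb2, Cemip and Igf2, already described. Sptssb, a subunit of serine palmitoyltransferase, was at 5.84, 4.65 and 5.38 CPM in the pain model and 9.23, 10.6 and 8.17 CPM in sham, with a log2 fold change of -0.82 ± 0.21 (SE). Sh3bgr was at 13.9, 15.2 and 11.2 CPM against 27.8, 17.3 and 25.5 CPM, and Ucma, a cartilage-matrix protein, at 0.898, 0.936 and 0.489 CPM against 2.48, 1.69 and 3.71 CPM. Prdm6, a regulator of smooth muscle identity, was at 1.80, 1.18 and 1.28 CPM against 4.80, 1.98 and 6.72 CPM. Prkg2, a cyclic-GMP-dependent kinase, was at 6.85, 7.32 and 8.10 CPM against 9.51, 10.8 and 11.2 CPM. Hoxb8, a homeobox gene expressed at caudal spinal levels, was at 9.50, 10.8 and 10.5 CPM against 18.004, 15.5 and 15.2 CPM, with a log2 fold change of -0.66 ± 0.18 (SE).

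Spread within the pain-model group was large for a minority of genes. Among genes with at least 5 CPM on average, Uprt, a uracil phosphoribosyltransferase homologue, had the largest SD of log2 CPM in the NPP libraries (4.94), at 0, 22.1 and 30.7 CPM against 23.1, 0.0196 and 26.3 CPM in sham. Ifit1, an antiviral RNA-binding protein, was at 0, 56.1 and 4.40 CPM against 4.75, 0.118 and 3.28 CPM, and Chchd2, a mitochondrial protein, at 1.83, 38.9 and 1.09 CPM against 147, 1.24 and 110.4 CPM. Uprt, Ifit1 and Chchd2 ranged from below 2 CPM to several-fold more within each group. Usp18, which removes Isg15 from proteins, followed the interferon split, at 89.998, 77.9 and 3.02 CPM against 13.5, 88.9 and 4.22 CPM. Of the 100 genes with the widest spread in the pain model, NPP replicate 1 was the highest of the 3 in 56, NPP replicate 2 in 23 and NPP replicate 3 in 21. NPP replicate 3 was the lowest in 73 of them.

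The same model was also sampled under the herbal treatment, and NPP_herb against Sham_herb shares no library with the solvent comparison. That contrast had 238 genes (1.40%) at an unadjusted p under 0.05, 138 higher (0.81%) and 100 lower (0.587%), and 0 called by edgeR, with a smallest adjusted p of 0.228. Across all genes the log2 fold changes of both arms correlated at r = -0.10, and 45.7% had the same sign. Of the 967 genes at an unadjusted p under 0.05 under solvent, 413 (42.7%) had the same sign under herb. Of the 10 higher genes ranked above, 6 had the same sign, and of the 10 lower genes 3. The difference between the arms was tested for each gene in the same fit: 0 genes were called in edgeR (smallest adjusted p 0.83), and 580 (3.40%) had an unadjusted p under 0.05.

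The nerve injury list had similar medians in both arms. The median log2 fold change was 0.34 under solvent and 0.33 under herb, and 26 of its 33 members had the same sign in both. An unadjusted p under 0.05 was reached by 6 members under solvent and 1 under herb, all higher. Over all genes, 2.66% were higher at that p under solvent and 0.81% under herb. The herb arm was uneven too: the list level was 0.15, 0.52 and -0.25 log2 units in NPP_herb and -0.26, -0.23 and 0.10 in Sham_herb. Atf3 was at 50.9, 107 and 10.8 CPM in NPP_herb and 11.6, 10.7 and 54.5 CPM in Sham_herb. In both measures NPP_herb replicate 3 was below Sham_herb replicate 3. Ecel1 gave 1.46 and 1.54, Ankrd1 1.77 and 1.75, Atf3 1.26 and 1.13, and Gal 0.86 and 1.87, under solvent and herb. Other members differed more between the arms, with Reg3b at 4.24 and 1.93, Cacna2d1 at 1.57 and 0.62, Bdnf at 0.78 and 0.11, Smad1 at 0.36 and 0.02, and Stat3 at 0.29 and -0.04. Nociceptor genes had a median of 0.24 under solvent and -0.06 under herb. Trpv1 gave 0.51 and 0.02, P2rx3 0.31 and -0.14, and Npy1r 0.51 and -0.10. Connective, blood and interferon lists had opposite signs in the arms. The meningeal median was -1.005 under solvent and 0.37 under herb, the fibroblast and matrix median -0.34 and 0.39, the neutrophil median -1.11 and 0.98, the red cell median -1.59 and 2.86, and the interferon median 0.43 and -0.84. In edgeR, the difference between arms had an unadjusted p under 0.05 for 7 of 16 fibroblast and matrix and 6 of 13 red cell genes. It did for 2 of 12 neutrophil, 4 of 26 nociceptor, 1 of 33 nerve injury and 0 of 33 interferon genes. Over all genes 580 (3.40%) did, and the list counts are a description. The fibroblast and matrix list includes Igf2 and shares Ptgds, Foxd1 and Slc47a1 with the meningeal list. Gjb2 had log2 fold changes of -1.17 under solvent and 0.77 under herb, Igf2 -1.43 and 0.75, and Slc22a8 -3.35 and 1.15. These 3 genes and the meningeal list were picked in the solvent arm, which is part of the difference, so their difference is given with no p of its own. In the test over all genes, edgeR called none of them for the difference, while DESeq2 called Gjb2 and Igf2 (adjusted p 0.0104 and 0.0450).

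**Figure D5:**
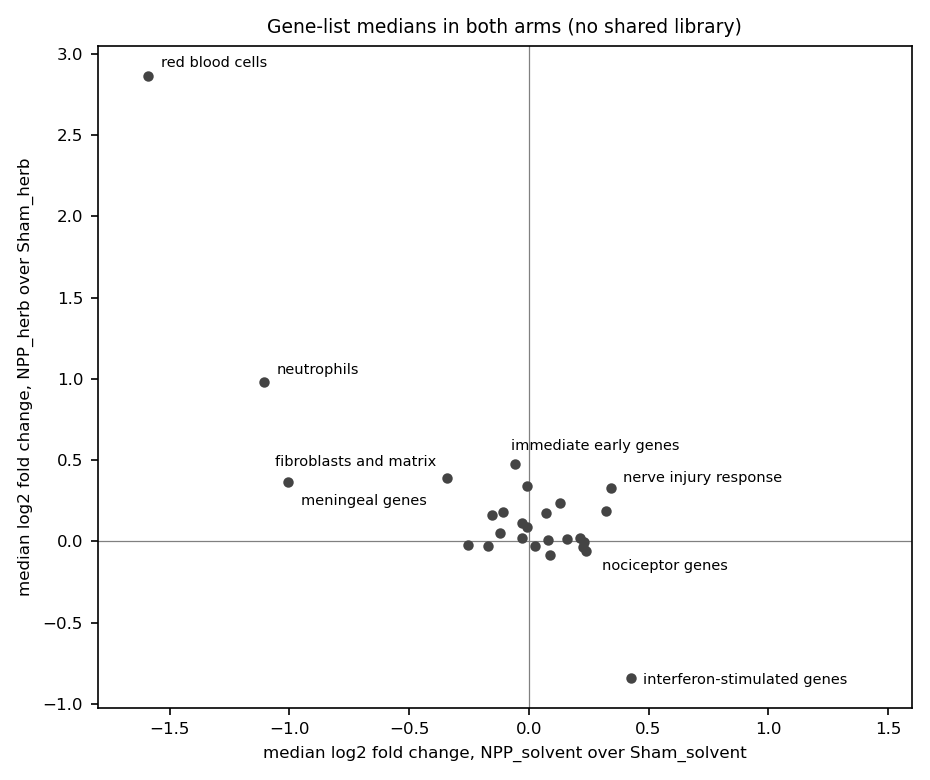
Median log2 fold change of each gene list for NPP_solvent over Sham_solvent (horizontal) and NPP_herb over Sham_herb (vertical), 1 point a list, the arms sharing no library. Nerve injury genes lie in the upper right (0.34 and 0.33), and red blood cell and neutrophil genes in the upper left (-1.59 and 2.86, -1.11 and 0.98).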

How the data were processed

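Bead-captured messenger RNA from rat dorsal root ganglia was made into libraries with a stranded kit and read in pairs on a NovaSeq, per the labels' protocols. The deposited tables held whole-number read counts for 25678 genes and FPKM values for 25557, with columns matched to samples by name. HISAT2 and build mRatBN 7.2 appear in the submitters' processing notes, which also name DESeq2; neither the read counter nor its strand setting is given in the sources used here. Overlapping antisense genes could therefore share reads, as could near-identical genes such as the globins. Counts were tested with edgeR 4.0.16 (R 4.3.3): filterByExpr on the 6 groups, which removed 8635 genes, TMM scaling, and the quasi-likelihood test on all 18 libraries, which gave 12 residual degrees of freedom, with Benjamini-Hochberg adjustment at 0.05. CPM values are unlogged unless stated, and log2 CPM used a prior count of 2. Fold changes are NPP_solvent over Sham_solvent. Relative gene length came from the ratio of counts to the deposited FPKM, at FPKM of at least 1.

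Named genes were a fixed set of injury, pain and inflammation genes, the 10 per direction with the smallest unadjusted p among genes of at least 1 CPM whose groups did not overlap, up to 2 per direction in each list, and the genes of widest spread and most similar pattern. Other list members are named as examples of their role. The members and the 30 lists were chosen with earlier results of these data known; the meningeal and Hox lists (2 lists) were added later. The fit script was checked on simulated counts. The labels do not say whether replicate numbers pair the libraries, and the main fit took them as unpaired. Alternatives were DESeq2 1.42.0, relative log expression factors, no filter on low counts, only the 6 libraries, a replicate block, each library left out in turn, limma 3.58.1 on log2(FPKM + 0.1) and log2(FPKM + 1), and a length slope covariate that was added after seeing the data. FPKM folds on these scales understate changes of low genes.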

Additional observations from a re-analysis of the deposited data

How the results depend on the processing

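With 3 libraries a group and 0 genes called, single-gene statements rest on order and spread, and fewer cells and less RNA per cell cannot be told apart. All 14 alternatives for the pain model against sham also called 0 genes, and the lowest adjusted p of a named gene among them was 0.0634. The 967 genes at an unadjusted p under 0.05 were 501 with only the 6 libraries and 522 with the length slope covariate. Leaving out 1 library gave 377 (without sham replicate 1) to 3390 (without sham replicate 2), with 802, 1592 and 421 without NPP replicates 1, 2 and 3 and 557 without sham replicate 3; why sham replicate 2 weighs so much was not tested. With a replicate block there were 1002 such genes and 0 calls. Deviations from the group mean correlated at -0.13, -0.28 and 0.11 between same-numbered libraries. With 3 libraries a group, these values cannot tell whether the numbers pair the libraries, which the labels do not state. The difference between arms had 3 genes called in DESeq2 (Gjb2, Igf2 and LOC120102105) and 0 to 1 when a library was left out, Igf2 without NPP replicate 1 (adjusted p 0.0349 in edgeR). It could not be run with only the 6 libraries. At a mean of at least 5 CPM, 883 genes did not overlap between groups, where 1383 did not among all genes tested, since fewer genes enter. The meningeal median was -0.49 on log2(FPKM + 1), a scale that shrinks low genes, and -1.39 to -0.84 over libraries left out. That range was 0.13 to 0.39 for sodium, calcium and HCN channels and -0.20 to 0.0094 for heat shock genes. Of 84 named genes followed, 73 kept their sign under every alternative, as did 20 of 32 list medians. Kcna2 was -0.11 with the length covariate. Over the libraries left out, log2 fold changes crossed 0 for Gadd45a (-0.11 to 0.44), Csf1 (-0.067 to 0.32), Vip (-0.64 to 3.75), Calca (-0.058 to 0.22), Tac1 (-0.0037 to 0.34), Kcna2 (-0.056 to 0.32), Il1b (-0.085 to 0.77), Ccl2 (-0.19 to 0.46), Cxcl10 (-0.68 to 0.16), Fos (-0.48 to 0.060) and Spi1 (-0.17 to 0.38). Apart from the loss of samples or genes, the cause of these changes was not tested.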

Other observations

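Hox genes, which record the level of the body axis at which a sensory neuron formed, were examined after Hoxb8 was seen among the lower genes, so their counts are a description only. Of 31 tested, 12 were higher and 19 lower in the pain model, with a median log2 fold change of -0.06. By cluster, 4 of 7 Hoxd genes were higher and 7 of 8 Hoxb genes lower. The 4 named here were chosen after their values were seen. On chromosome 3, Hoxd10 was at 14.4, 11.2 and 16.6 CPM in the NPP libraries and 8.09, 6.36 and 9.52 CPM in the sham libraries, and Hoxd11 at 7.26, 6.42 and 8.89 CPM against 2.60, 3.14 and 4.09 CPM, both without overlap. On chromosome 10, Hoxb8 was at 9.50, 10.8 and 10.5 CPM against 18.004, 15.5 and 15.2 CPM and Hoxb6 at 8.30, 12.1 and 7.91 CPM against 18.3, 11.6 and 11.9 CPM, where Hoxb6 overlapped. Log2 fold changes were 0.82 ± 0.32 (SE) for Hoxd10, 1.20 ± 0.53 for Hoxd11, -0.66 ± 0.18 for Hoxb8 and -0.56 ± 0.23 for Hoxb6. Under the herbal treatment they were 0.01, 0.13 and 0.05 for Hoxd10, Hoxd11 and Hoxb8. The spinal level of each ganglion was not given in the sources used here, and its part in these values was not tested.

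Several genes were present in some libraries of both groups and at or near 0 in others. Ndufa10l1 was at 0, 10.1 and 0.0272 CPM in the NPP libraries and 15.2, 0.0393 and 8.38 CPM in the sham libraries. Uprt and Ndufa10l1 were both near 0 in NPP replicate 1 and sham replicate 2, the pair of libraries that were closest across all genes. Dstnl1 was at 36.4, 1.91 and 1.77 CPM against 65.96, 33.5 and 57.1 CPM, and Cd7, a T-cell surface protein, at 8.08, 9.68 and 0.381 CPM against 7.40, 5.70 and 5.91 CPM.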
